A study of Homo sapiens with 70 samples.

Results

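NF-kB is a family of dimeric transcription factors, and 10 of its genes were followed here in human pancreatic cancer cells. They are the 5 subunits (NFKB1, RELA, REL, NFKB2 and RELB), 3 feedback inhibitors (NFKBIA, NFKBIZ and TNFAIP3) and 2 widely used target genes (BIRC3 and CXCL8). They were taken by gene name from a table of 78932 genes, each name matched 1 row, and all 10 passed the filter on low counts in every fit. The cells were MIA PaCa-2, an established line from a pancreatic ductal adenocarcinoma, in a derivative that is resistant to the drug sotorasib and that switches on dCas9-KRAB, a catalytically dead Cas9 joined to a transcriptional repressor, in doxycycline (DOX). Each culture carried 1 of 3 guide RNAs: sgZBTB11 #1 or sgZBTB11 #2, which target the zinc finger gene ZBTB11, or the control guide sgNS. Each was given DOX or the solvent DMSO and collected at 5 hr or at day 1, 3 or 5. All groups therefore share the resistant line and the inducible repressor, and sgNS cells with DOX share the drug and the repressor as well. The labels do not say whether a guide line is 1 clone or a pool, nor whether the replicates of a group were grown apart; the p-values rest on the variation among those libraries, and this could be technical.

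In the canonical NF-kB pathway, RELA or REL pairs with the p50 protein made from NFKB1, and the inhibitor IkB-alpha, the product of NFKBIA, holds the dimer in the cytoplasm until the IkB kinase marks it for destruction. In the non-canonical pathway, the kinase NIK drives the processing of the NFKB2 precursor to p52, which works with RELB. Both arms switch on their own genes: NFKBIA and TNFAIP3 (A20, a ubiquitin editing enzyme) shut the signal off, NFKBIZ (IkB-zeta) acts in the nucleus as a cofactor of p50, NFKB2 and RELB feed the second arm, BIRC3 (cIAP2) is a ubiquitin ligase that restrains cell death and NIK, and CXCL8 is interleukin 8, a chemokine that attracts neutrophils. Pancreatic cancer cells often keep some of this programme on.

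Feedback of this kind acts through kappa-B sites in DNA, and the letters before the members' start sites were read for them. RefSeq windows (GRCh38.p14) were found for 9 of the 10 members; RELB had none in the table. In the 250 bases before the start, the 10-base kappa-B consensus, searched on both strands, stood in at least 1 window of 7 members, and the shorter motif GGANNTTCC in 7, with 8 members holding either. Counted by window, 9 of the members' 14 windows held the consensus and 10 held either motif. Of all 35116 windows of this length, 5.21% held the consensus, 3.84% the shorter motif and 7.99% either. The motifs overlap, and several members have more than 1 window. A match is a description of the letters, not a measured binding site. The stretches below lie outside the exons of their own gene, read 5′ to 3′ on the gene's strand, with the motif in capitals. They are shown for the members that had a motif outside those exons.
CXCL8, chr4:73740319-73740505, plus strand: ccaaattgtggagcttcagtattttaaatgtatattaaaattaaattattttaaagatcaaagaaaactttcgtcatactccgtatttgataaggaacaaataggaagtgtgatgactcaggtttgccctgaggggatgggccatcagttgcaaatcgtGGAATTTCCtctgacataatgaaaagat
BIRC3, chr11:102317234-102317449, plus strand: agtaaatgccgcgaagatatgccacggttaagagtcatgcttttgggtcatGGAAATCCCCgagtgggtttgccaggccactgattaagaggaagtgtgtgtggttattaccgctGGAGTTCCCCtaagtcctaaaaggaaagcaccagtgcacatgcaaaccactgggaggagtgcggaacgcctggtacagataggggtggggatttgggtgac
NFKBIA, chr14:35404750-35404999, minus strand: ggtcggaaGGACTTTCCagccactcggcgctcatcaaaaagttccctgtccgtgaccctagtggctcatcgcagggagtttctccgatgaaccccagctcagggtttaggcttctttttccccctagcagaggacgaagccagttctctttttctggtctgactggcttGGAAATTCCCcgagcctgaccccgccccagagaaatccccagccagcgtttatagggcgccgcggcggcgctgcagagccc
NFKBIZ, chr3:101827740-101827989, plus strand: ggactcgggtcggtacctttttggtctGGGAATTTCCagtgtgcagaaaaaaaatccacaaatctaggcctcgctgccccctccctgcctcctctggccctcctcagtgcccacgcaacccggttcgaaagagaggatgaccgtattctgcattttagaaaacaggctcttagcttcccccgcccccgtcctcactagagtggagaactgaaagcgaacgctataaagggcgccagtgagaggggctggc
NFKB1, chr4:102501284-102501328, plus strand: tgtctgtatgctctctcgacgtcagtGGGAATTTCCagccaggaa
NFKB2, chr10:102395503-102395564, plus strand: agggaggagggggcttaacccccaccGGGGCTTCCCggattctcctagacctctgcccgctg

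CXCL8 carried only the shorter motif, 91 to 83 bases before its start. BIRC3 carried 2 consensus matches, both written here as they read on the plus strand, at 199 to 190 and 135 to 126 bases before the start. NFKBIA carried GGAAATTCCC at 81 to 72 bases and GGACTTTCC at 242 to 234 bases before the start. NFKBIZ and NFKB1 carried the same 10 letters, GGGAATTTCC, at 223 to 214 and at 49 to 40 bases. The NFKBIA match GGAAATTCCC reads as these letters on the other strand. Another NFKBIZ match, GGGGTTTCCC, lay 239 to 230 bases before a start further into the gene, at least in part in an annotated exon. In REL the match GGGAAATTCCC, and in TNFAIP3 the matches GGAAAGTCCC and GGAAATCCCC, fell within an annotated exon of the gene, so only the sites are given. The NFKB2 site shown, GGGGCTTCCC, lay 176 to 167 bases before a start further into the gene. The window before the first start of NFKB2 held neither motif. Its other matches, GGGAATTCCCC, GGGGCTTTCC and GGGACTTTCC, lay at least in part in an annotated exon. RELA held neither motif in its windows.

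The 70 libraries fell into 24 groups, 22 of them with 3 libraries and 2 with 2 (both DMSO groups: sgNS of day 1, sgZBTB11 #1 of day 5), with total counts from 12068842 to 20627642 (median 15773579). Within groups, the mean correlation of a library with the others was at least 0.9936. Of the carcinoma line's markers, 7 of 10 reached a median of 1 TPM (length-scaled transcript share), VIM at 3330 and KRT18 at 1560, while EPCAM and CDH1 had a median of 0 and KRT7 of 0.09. Of 11 blood cell markers 1 did (CD68, 1.05), with PTPRC at 0 and a summed level of 0.98 to 8.92 TPM. Of 10 fibroblast and endothelial markers 3 did (COL1A2 146, COL3A1 5.73 and CDH5 5.8), with DCN, LUM, PDGFRB and PECAM1 at 0 and a summed level of 102 to 216 TPM. The share of counts from mitochondrial genes was lowest at day 1 (9.91 to 12.6%), 11.9 to 14.3% at 5 hr, and higher at day 3 (17.8 to 22.2%) and day 5 (26 to 33.7%). Its part in the results below was not tested. ZBTB11, the targeted gene, reads as labelled: at day 5 it was at 28.4, 27.7 and 28.2 CPM (counts scaled to library size) with DOX and sgZBTB11 #2, against 53.7, 51.5 and 51.5 with DMSO. Its log2 change with DOX at day 3 was -0.45 (SE 0.057, adjusted p = 2.79e-06) with sgZBTB11 #1 and -0.79 (SE 0.056, adjusted p = 6.06e-13) with sgZBTB11 #2, and it was -0.06 (SE 0.051, adjusted p = 0.706) with sgNS. At 5 hr it was not yet lower with sgZBTB11 #1 (log2 change -0.00, adjusted p = 0.962), and in sgZBTB11 #2 it was at 54.6, 56.6 and 54.2 CPM with DMSO against 49.1, 48.9 and 48 with DOX.

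Per length of transcript, the members spanned a wide range. At 5 hr, over 18 libraries, CXCL8 was highest at a median of 190 TPM (160 to 232), followed by NFKB2 at 100 (82.6 to 139) and NFKBIA at 63 (56.9 to 82.5); these 3 ranges did not overlap. RELB at 26.2 (22.6 to 33.1) and RELA at 25.7 (20.9 to 30.5) overlapped each other. NFKB1 stood at 12 (10.3 to 15.1), and NFKBIZ at 6.8 (4.93 to 8.58) overlapped BIRC3 at 4.74 (3.13 to 6.57). TNFAIP3 at 0.835 (0.61 to 1.17) and REL at 0.475 (0.31 to 0.65) were near the lower limit. REL, the subunit best known from lymphocytes, rested on 18 to 88 counts a library, TNFAIP3 on 16 to 105, and BIRC3 after 5 hr on 5 to 49, and these 3 genes have the widest errors below.

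By day 5 the order was different. NFKBIA was highest at 116 TPM (108 to 133), then NFKB2 at 38 (31.5 to 47.1), CXCL8 at 21.7 (13.2 to 32.2) and RELA at 21.6 (18.2 to 26.2). The CXCL8 range overlapped those of NFKB2 and RELA, which did not overlap each other. NFKBIZ was at 10.9 (7.34 to 17.1), NFKB1 at 5.17 (4.48 to 6.44) and RELB at 2.67 (1.68 to 3.91). TNFAIP3 (0.35), REL (0.3) and BIRC3 (0.2) overlapped at the bottom. CXCL8 and NFKB2, the 2 highest at 5 hr, thus stood below NFKBIA at day 5, and RELB and BIRC3 had dropped down the order.

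**Figure D1:**
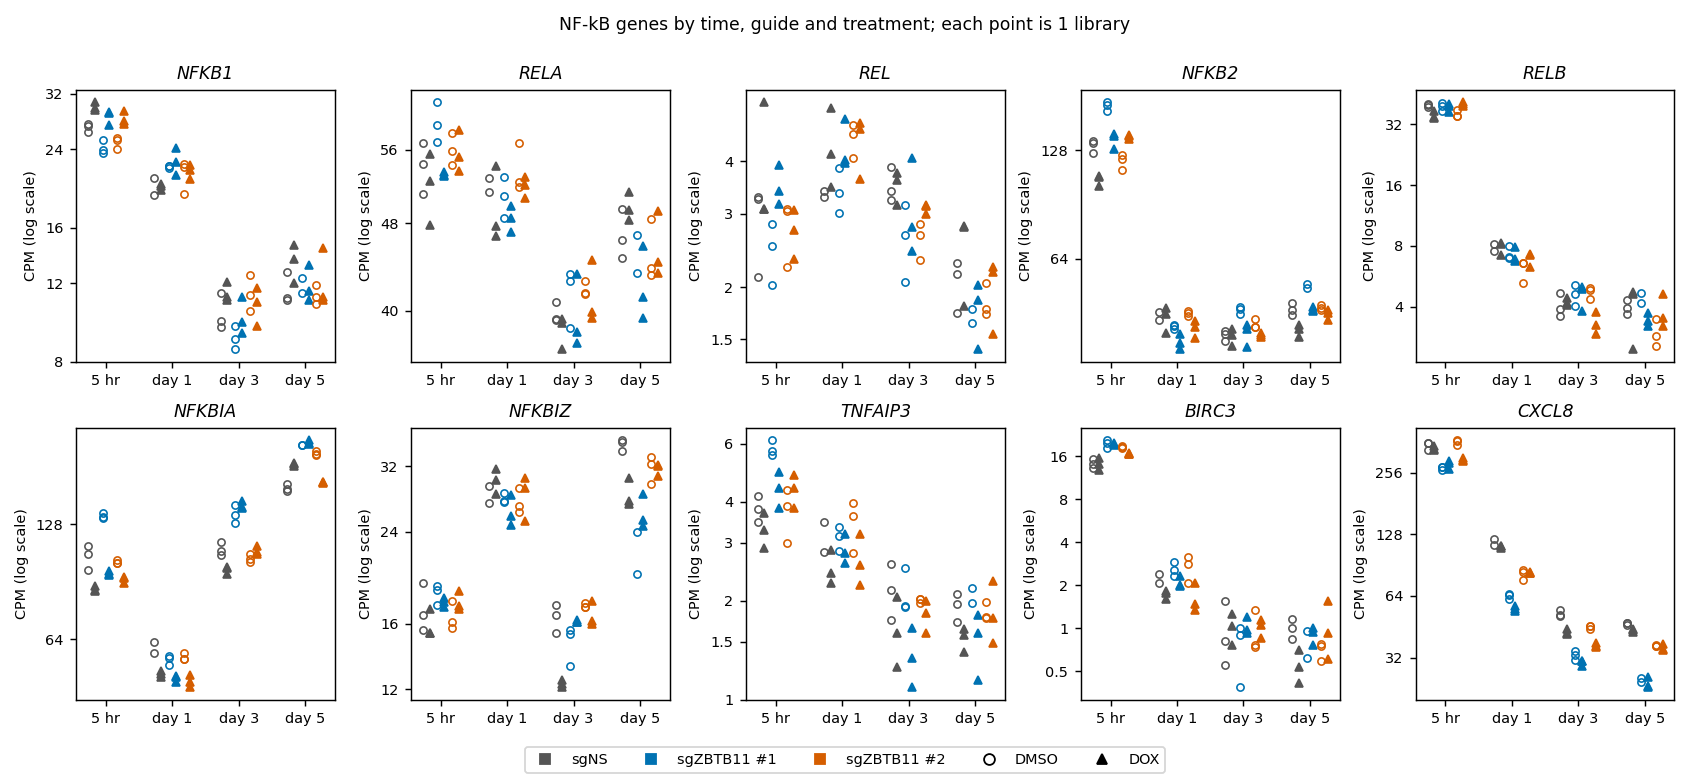
CPM of each of the 10 genes (y axis, log scale) at 4 time points (x axis), 1 point per library, coloured by guide, open circles for DMSO and filled triangles for DOX. NFKB2, RELB, BIRC3 and CXCL8 lie far higher at 5 hr than later in every group, while NFKBIA dips at day 1 and climbs to day 5.

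The first comparison asks how the members moved with time in cells that never received DOX (34 libraries, differences averaged over the 3 guide lines). From 5 hr to day 1 all 10 members passed the test, 2 higher and 8 lower, as did 67.2% of all genes tested; the members' median log2 change was -0.68 and that of all genes 0.015. From day 1 to day 3, 9 passed (1 higher, 8 lower; 79.8% of all genes), with a median of -0.65 against 0.05 over all genes. From day 3 to day 5, 8 passed (5 higher, 3 lower; 65.3%), with a median of 0.04 against -0.02. Falls by a log2 change of 1 or more were rarer: 4 members from 5 hr to day 1 (3.26% of all genes), 3 from day 1 to day 3 (6.75%) and 0 from day 3 to day 5 (1.71%; 8 members passed that step's test with smaller changes or rises). Of the 4 fibroblast and endothelial markers tested, 4 were higher at day 3 than at day 1 (median log2 change 1.04), and their part in these changes was not tested. Time and day of handling cannot be told apart.

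The non-canonical subunits fell steeply and early. RELB lay at 35.1 to 40.7 CPM at 5 hr (median 38.8), 5.27 to 8.22 at day 1 (median 7.02), 3.61 to 5.14 at day 3 (median 4.6) and 2.56 to 4.69 at day 5 (median 3.81). No 5 hr library overlapped a later one, and days 1 and 3 did not overlap either. Its log2 change was -2.43 (SE 0.049, adjusted p = 2.24e-43) to day 1, -0.67 (SE 0.071, adjusted p = 2.63e-12) to day 3 and -0.25 (SE 0.084, adjusted p = 0.011) to day 5. NFKB2, its partner, went from 113 to 174 CPM at 5 hr (median 134) to 40.9 to 45.9 at day 1 (median 43.7), a log2 change of -1.66 (SE 0.025, adjusted p = 4.05e-49). Its change from day 1 to day 3 was -0.04 and did not pass (adjusted p = 0.167), and it rose by 0.22 to day 5 (adjusted p = 4.39e-09). The ratio of 5 hr to day 5 was 8.83 to 12.1 for RELB and 2.55 to 3.16 for NFKB2 over the 3 lines.

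The canonical subunits moved less and later. NFKB1, the source of p50, was at 23.6 to 27.4 CPM at 5 hr (median 25.2), 19 to 22.3 at day 1 (median 21.8), 8.52 to 12.5 at day 3 (median 9.89) and 10.8 to 12.7 at day 5 (median 11.3). Its drop thus came between day 1 and day 3, where the log2 change was -1.04 (SE 0.048, adjusted p = 4.1e-27) and the libraries did not overlap. RELA, the main transactivating subunit, moved little, with a ratio of 5 hr to day 5 of 1.15 to 1.31 over the lines, at a median of 56.8, 52, 41.4 and 45.6 CPM at the 4 times, with its lowest range (38.6 to 43.2) at day 3. Its fall to day 3 was -0.35 (SE 0.032, adjusted p = 1.17e-14), while its small steps to day 1 (-0.10) and to day 5 (0.17) turned to 0.05 and -0.08 on the log2(TPM + 1) scale, where the median of all genes shifted by 0.132 and -0.175. REL rose by 0.47 to day 1 (SE 0.106, adjusted p = 9.69e-05) and then fell by 0.37 and by 0.61, with 2.02 to 3.28 CPM at 5 hr, 3.01 to 4.88 at day 1, 2.06 to 3.88 at day 3 and 1.64 to 2.29 at day 5.

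The targets BIRC3 and CXCL8 also fell. BIRC3 was at 13.3 to 20.7 CPM at 5 hr (median 18.4), 2.06 to 3.16 at day 1 (median 2.47), 0.384 to 1.55 at day 3 (median 0.815) and 0.589 to 1.15 at day 5 (median 0.801). The first 3 times did not overlap, and the last 2 did. The log2 changes were -2.79 (SE 0.085, adjusted p = 1.14e-34) and -1.47 (SE 0.150, adjusted p = 5.5e-13), and the last step, -0.11, did not pass (adjusted p = 0.638). On the log2(TPM + 1) scale, which shrinks changes of low genes, the first 2 were -1.66 and -0.38, both called. CXCL8 was at 264 to 367 CPM at 5 hr (median 347), 61.6 to 122 at day 1 (median 80.1), 31.2 to 54.9 at day 3 (median 45.4) and 24.3 to 47.1 at day 5 (median 36.6). It fell by 1.91 (SE 0.022, adjusted p = 1.58e-54) and by 1.00 (SE 0.027, adjusted p = 1.01e-37) on the log2 scale. Its last step, -0.28, was no longer called once the trend with gene length and GC content was removed (-0.01, adjusted p = 0.79). The ratio of 5 hr to day 5 was 7.41 to 10.8 for CXCL8 and 14.3 to 26.4 for BIRC3 over the 3 lines.

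The 3 inhibitors took different courses. NFKBIA was at 96.9 to 137 CPM at 5 hr (median 107), 54.8 to 63 at day 1 (median 57.4), 102 to 144 at day 3 (median 109) and 156 to 206 at day 5 (median 195). It fell by 0.95 on the log2 scale to day 1 (SE 0.025, adjusted p = 1.67e-37) and then rose by 0.99 (SE 0.025, adjusted p = 4.71e-39) and by 0.69 (SE 0.022, adjusted p = 1.27e-33), ending above its 5 hr level in all 3 lines. NFKBIZ moved in a zigzag: 15.6 to 19.1 CPM at 5 hr (median 17.4), 26.1 to 29.3 at day 1 (median 27.4), 13.3 to 17.5 at day 3 (median 16.6) and 19.9 to 35.8 at day 5 (median 32.8), with log2 changes of 0.70 (SE 0.044), -0.78 (SE 0.044) and 0.86 (SE 0.045), each with an adjusted p of 1.18e-20 or less. On the log2(TPM + 1) scale its last 2 changes were -0.27 and 0.40, both called. TNFAIP3 fell by 0.41 (SE 0.095, adjusted p = 0.000143) and by 0.63 (SE 0.108, adjusted p = 5.59e-07), from a median of 4.16 CPM to 3.25, 2.02 and 1.96; its last step did not pass (-0.09, adjusted p = 0.553), and its first was not called on the log2(TPM + 1) scale (-0.11, adjusted p = 0.0857).

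**Figure D2:**
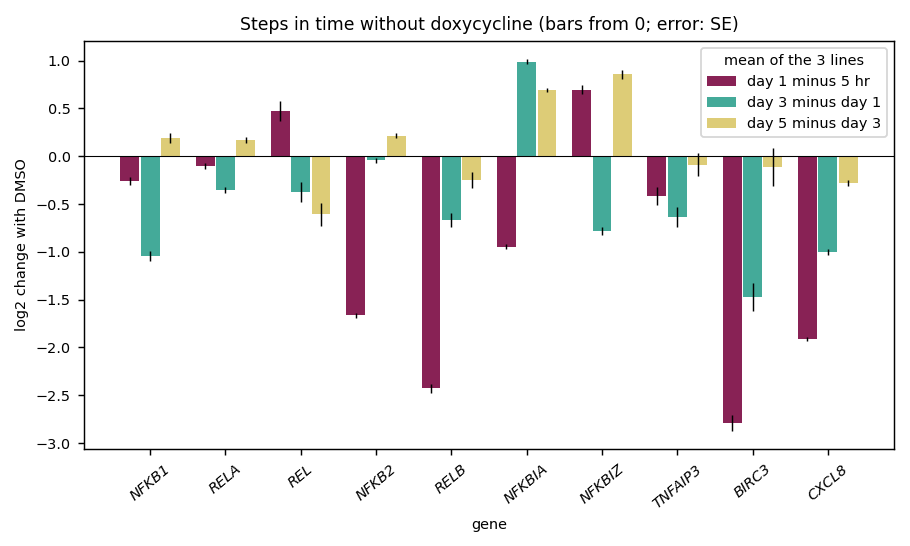
Log2 change of each gene (y axis) over 3 successive steps in time with DMSO, averaged over the 3 guide lines, as bars from 0 with the standard error. RELB, BIRC3, NFKB2 and CXCL8 have their deepest fall in the step to day 1, NFKB1 in the step to day 3, and NFKBIA rises in both later steps.

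The lines also differed from each other without DOX, in markers of cell type too. Of 4 tested fibroblast and endothelial markers 3 were higher than in sgNS in both ZBTB11 lines (median log2 difference 0.39 with sgZBTB11 #1 and 0.40 with sgZBTB11 #2), and of 7 epithelial and MIA PaCa-2 markers 6 and 5 were lower (-0.13 and -0.12). Their part in the line differences was not tested. Averaged over the 4 times, 4 members differed between the sgZBTB11 #1 and the sgNS line (2 higher, 2 lower; 30% of all genes tested), and 2 between the sgZBTB11 #2 and the sgNS line (both lower; 18.8%). The largest was CXCL8. With DMSO at day 5 it was at 47.1, 47.1 and 46.2 CPM in sgNS, 24.3 and 25.5 in sgZBTB11 #1, and 36.4, 36.9 and 36.4 in sgZBTB11 #2. The 3 lines do not overlap at day 5, nor at days 1 and 3. The mean difference from sgNS was -0.72 (SE 0.025, adjusted p = 1.18e-30) in sgZBTB11 #1 and -0.27 (SE 0.022, adjusted p = 4.73e-14) in sgZBTB11 #2. At 5 hr the sgZBTB11 #2 line was not below sgNS (log2 difference 0.05, no test at single times), while sgZBTB11 #1 already was (-0.37).

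Averaged over the 4 times, the sgZBTB11 #1 line also had more of both NFKBIA and NFKB2 and less NFKBIZ than sgNS. At day 1 both went the other way, with a log2 difference of -0.11 for NFKBIA and -0.10 for NFKB2 (no test at single times). NFKBIA differed by 0.22 (SE 0.021, adjusted p = 1.43e-12) and was at 133, 137 and 134 CPM at 5 hr against 107, 112 and 96.9. NFKB2 differed by 0.17 (SE 0.024, adjusted p = 1.2e-07). NFKBIZ differed by -0.20 (SE 0.040, adjusted p = 6.68e-05), most at day 5, where the log2 difference was -0.68 against 0.10, -0.03 and -0.16 at the earlier times. RELB was lower in sgZBTB11 #2 by 0.17 averaged over the 4 times (adjusted p = 0.0365), but not at day 3. Its log2 differences were -0.14, -0.36, 0.22 and -0.42 at the 4 times (no test at single times). The call of the mean was lost in 6 of 9 other settings and without any 1 of 7 libraries with DMSO. These were sgNS replicate 2 of day 1, 1 of day 3 or 2 of day 5, and sgZBTB11 #2 replicate 1 of day 1, 3 of day 3, or 1 or 3 of day 5 (adjusted p up to 0.127). ZBTB11 in the DMSO libraries at day 3 was at 46.4, 46.3 and 47.3 CPM in sgZBTB11 #1, 46, 45 and 47.3 in sgZBTB11 #2 and 50.6, 58.5 and 56.5 in sgNS; whether guides acted without DOX was not tested.

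The next comparison asks what DOX did within each guide (DOX minus DMSO at the same time). In sgNS, where no ZBTB11 knockdown is made, 12 of 40 tests of members passed, 2 higher and 10 lower: 4 at 5 hr (40.9% of all genes), 1 at day 1 (2.19%), 3 at day 3 (0.877%) and 4 at day 5 (17.3%). With sgZBTB11 #1, 8 of 40 passed, 1 higher and 7 lower: 5 at 5 hr (32.8%), 2 at day 1 (4.84%), 0 at day 3 by edgeR and by DESeq2 (0.733%; 3 members at an unadjusted p under 0.05) and 1 at day 5 (1.14%). With sgZBTB11 #2, 9 of 40 passed, 3 higher and 6 lower: 5 at 5 hr (17% of all genes), 2 at day 1 (7.88%), then 1 at each of days 3 (1.17%) and 5 (9%). The order of the 3 counts was not tested and depended on the setting: 1 fit of all 70 libraries gave 10 calls in sgNS, 11 in sgZBTB11 #1 and 9 in sgZBTB11 #2.

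NFKBIA was called in 9 of these 12 groups of libraries (3 lines at 4 times), more than any other member. At 5 hr it fell in all 3 lines: from 107, 112 and 96.9 to 85.6, 86.2 and 88 CPM in sgNS (log2 change -0.29, SE 0.038, adjusted p = 7.31e-08), from 133, 137 and 134 to 96.7, 93.9 and 95 in sgZBTB11 #1 (-0.49, SE 0.036, adjusted p = 2.23e-13), and from 101, 103 and 101 to 92.9, 89.6 and 92.4 in sgZBTB11 #2 (-0.14, SE 0.038, adjusted p = 0.00648). DMSO and DOX libraries did not overlap in any line. At day 1 it again fell in all 3 lines, by 0.24 in sgNS (adjusted p = 0.00273), 0.16 in sgZBTB11 #1 (adjusted p = 0.0234) and 0.22 in sgZBTB11 #2 (adjusted p = 0.00116). After removal of the length and GC trend the 5 hr fall in sgNS was -0.15, still called. On the log2(TPM + 1) scale the day 1 falls were -0.18, -0.11 and -0.17 and were not called, nor was the 5 hr fall in sgNS (-0.05, adjusted p = 0.256). The median of all genes in sgNS moved by 0.166 on that scale at 5 hr. The day 1 call was lost in sgNS without DMSO replicate 2 (adjusted p = 0.198), and in sgZBTB11 #1 by DESeq2 (0.144) and without any 1 of its libraries other than DMSO replicate 3 (adjusted p up to 0.105).

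NFKB2 moved in opposite directions by line at 5 hr. It fell from 126, 136 and 134 to 102, 108 and 109 CPM in sgNS (-0.31, SE 0.040, adjusted p = 3.77e-08) and from 165, 174 and 171 to 129, 142 and 140 in sgZBTB11 #1 (-0.30, SE 0.038, adjusted p = 3.59e-08), and rose from 121, 113 and 124 to 140, 141 and 138 in sgZBTB11 #2 (0.24, SE 0.039, adjusted p = 2.3e-05). No DMSO library overlapped a DOX library of its line. The sgNS fall was -0.12 on the log2(TPM + 1) scale, where the median of all genes moved by 0.166, and was still called. The sgZBTB11 #2 rise was 0.13 after removal of the length and GC trend, also still called. RELB, at the same time, was -0.16 in sgNS (adjusted p = 0.0115) and 0.17 in sgZBTB11 #2 (adjusted p = 0.0184). After removal of the length and GC trend these were 0.07 and 0.05, neither called. Leaving out DOX replicate 2 or 3 ended the sgNS call (adjusted p up to 0.0657), and leaving out DMSO replicate 1 or 2 or DOX replicate 2 or 3 the sgZBTB11 #2 call (up to 0.0969). NFKB1 rose in all 3 lines at 5 hr, by 0.16, 0.24 and 0.18 (adjusted p = 0.0208, 0.00105 and 0.0224). DESeq2 did not call the sgNS and sgZBTB11 #2 changes (adjusted p = 0.124 and 0.161). Of 9 other settings, DESeq2 included, 3 lost the sgNS call and 5 the sgZBTB11 #2 call. The sgNS call was also lost without DMSO or DOX replicate 2 (adjusted p up to 0.0956). The sgZBTB11 #2 call was lost without DMSO replicate 1 or DOX replicate 3 (up to 0.119). At day 5 NFKB2 was lower with DOX in sgNS, from 44.5, 48.2 and 46.2 to 40.8, 41.8 and 38.8 CPM (-0.23, SE 0.048, adjusted p = 0.000381), and in sgZBTB11 #1, from 54.4 and 53.2 to 45.9, 46.9 and 46.2 (-0.21, SE 0.052, adjusted p = 0.0264). The sgZBTB11 #1 call was lost without any 1 of its 5 libraries (adjusted p up to 0.342), by DESeq2 (0.117) and with the replicate block (0.052).

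CXCL8 was lower with DOX at day 3 in sgNS, from 51.1, 54.9 and 51.9 to 42.2, 41.7 and 44 CPM (-0.30, SE 0.048, adjusted p = 0.000231), and in sgZBTB11 #2, from 45.4, 45.6 and 44.1 to 36.1, 36.4 and 37.7 (-0.28, SE 0.048, adjusted p = 0.000344). In sgZBTB11 #1 the change then was -0.10 (adjusted p = 0.533). At day 5 the change in sgNS was -0.13 (adjusted p = 0.0472), a call lost in 7 of 9 other settings, the replicate block included (0.0543), and without each of its 6 libraries (adjusted p up to 0.138). At 5 hr it fell in sgZBTB11 #2 (-0.27, adjusted p = 8.29e-08, and -0.10 after removal of the length and GC trend, still called) and at day 1 in sgZBTB11 #1 (-0.21, adjusted p = 0.00201, not called on the log2(TPM + 1) scale, 0.122). RELA fell in sgZBTB11 #1 at 5 hr (-0.15, adjusted p = 0.018) and TNFAIP3 likewise (-0.39, adjusted p = 0.0292); DESeq2 called neither (0.0632 and 0.141), nor did limma. Leaving out DMSO replicate 2 or 3 or DOX replicate 2 ended the RELA call (adjusted p up to 0.143), and DMSO replicate 2 or 3 or DOX replicate 1 or 3 the TNFAIP3 call (up to 0.146). BIRC3 fell in sgZBTB11 #2 at day 1 (-0.72, adjusted p = 0.0225), which was lost by DESeq2 (0.191) and without DMSO replicate 3 (adjusted p = 0.13), DOX replicate 1 (0.119) or DOX replicate 2 (0.0843). REL passed no test with DOX in any line.

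**Figure D3:**
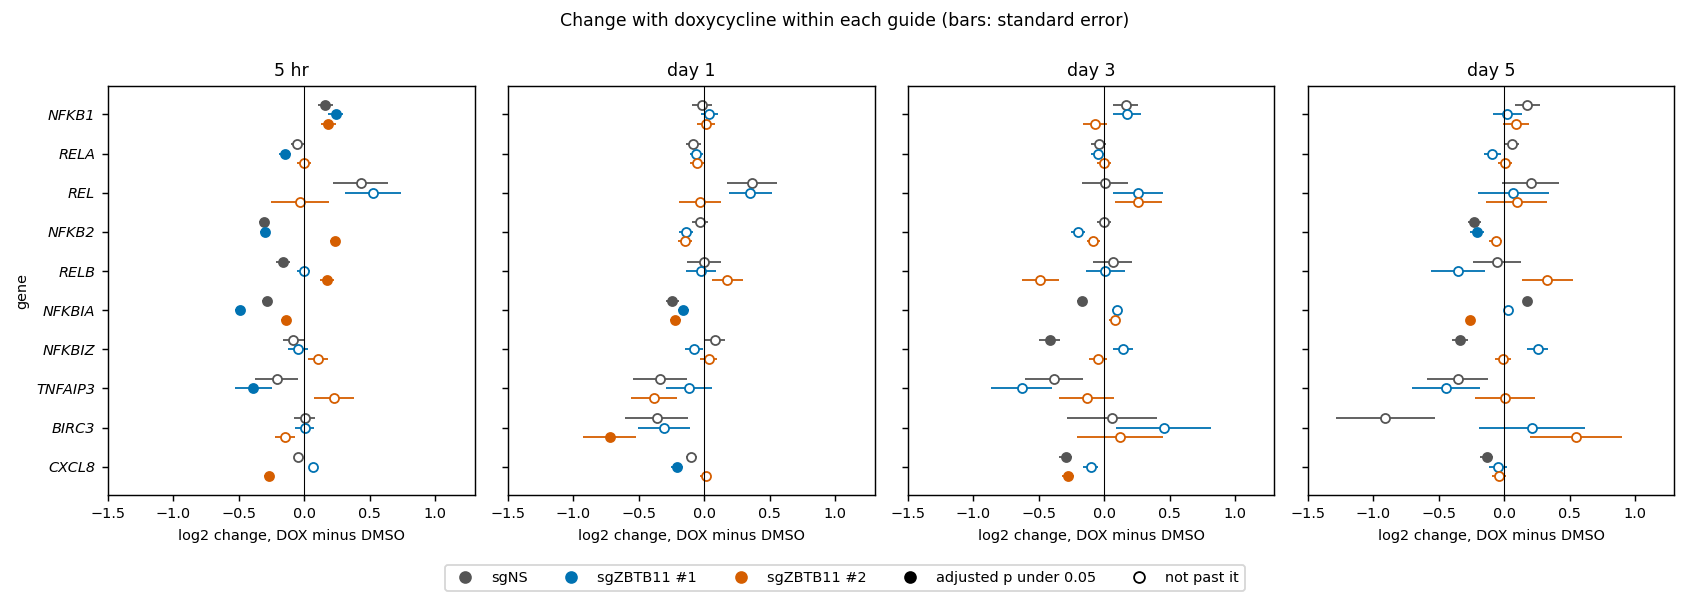
Log2 change with DOX (x axis) of each gene (y axis) in the 3 guide lines at 4 times, with the standard error as a bar; filled points passed the test. Most points lie within 0.5 of 0, NFKBIA lies left of 0 in all 3 lines at 5 hr and day 1, and NFKB2 is on opposite sides of 0 at 5 hr.

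The comparison closest to the effect of ZBTB11 loss sets the mean DOX change of both ZBTB11 guides against that of sgNS. By this net change, 2 members passed at 5 hr (both higher; 30% of all genes), 0 at day 1 by edgeR and by DESeq2 (0.0737%; 0 members at an unadjusted p under 0.05), 2 at day 3 (both higher; 0.493%) and 3 at day 5 (2 higher, 1 lower; 19.2%), which makes 7 of 40, 6 higher and 1 lower. The day 1 and day 3 backgrounds are low, so the 2 members called at day 3 stand beside 82 genes of 16645.

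NFKBIZ is the member that lies near ZBTB11. Both are on chromosome 3, ZBTB11 at 101648889 to 101677132 and NFKBIZ at 101827990 to 101861022 (RefSeq, GRCh38.p14), 151 kb apart. At day 3 NFKBIZ was at 15.4, 16.6 and 17.4 CPM with DMSO and 12.1, 12.3 and 12.5 with DOX in sgNS. It was at 13.3, 15.6 and 15.3 and then 16.1, 16.3 and 16.1 in sgZBTB11 #1, and at 17.2, 17.5 and 17.2 and then 16.2, 16 and 17.7 in sgZBTB11 #2. DMSO and DOX libraries did not overlap in sgNS, where DOX was lower, or in sgZBTB11 #1, where DOX was higher. The change was -0.42 in sgNS (SE 0.079, adjusted p = 0.00316), 0.15 in sgZBTB11 #1 (adjusted p = 0.528) and -0.05 in sgZBTB11 #2 (adjusted p = 0.879). The net change was 0.47 (SE 0.095, adjusted p = 0.00834); it was not called by DESeq2 (adjusted p = 0.0782), on the log2(TPM + 1) scale (0.0542) or without sgNS DMSO replicate 3 (0.0747).

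At day 5 NFKBIZ was at 35.8, 34.2 and 35.5 CPM with DMSO and 30.3, 27.1 and 27.5 with DOX in sgNS, a fall of 0.34 (SE 0.064, adjusted p = 5.86e-05). In sgZBTB11 #1 it was at 19.9 and 24 and then 28.3, 25.2 and 24.6 (0.26, adjusted p = 0.107), and in sgZBTB11 #2 at 29.6, 32.3 and 33.3 and then 32, 32.2 and 30.6 (-0.01, adjusted p = 0.97). The net change was 0.46 (SE 0.082, adjusted p = 1.66e-05) and was called in all 9 other settings and without each library in turn. At both times the net change of NFKBIZ is positive beside a called fall in sgNS and no called change with either ZBTB11 guide.

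NFKBIA had net changes of opposite sign at the 2 late times. At day 3 it fell in sgNS from 106, 115 and 109 to 95, 98.2 and 98.9 CPM (-0.17, adjusted p = 0.0288, lost by DESeq2, 0.0558, and without any 1 library other than DMSO replicate 1, with adjusted p up to 0.257). The sgZBTB11 #1 line went from 144, 129 and 135 to 141, 142 and 147 (0.10, adjusted p = 0.312) and sgZBTB11 #2 from 107, 104 and 102 to 108, 112 and 107 (0.08, adjusted p = 0.461). The net change was 0.26 (SE 0.049, adjusted p = 0.00462), and was not called without sgNS DMSO replicate 2 (adjusted p = 0.0689). At day 5 it rose in sgNS from 158, 163 and 156 to 184, 182 and 185 (0.18, SE 0.029, adjusted p = 3.7e-06) and fell in sgZBTB11 #2 from 199, 195 and 194 to 164, 165 and 165 (-0.26, SE 0.029, adjusted p = 9.46e-10), with no overlap in either line. The sgZBTB11 #1 line went from 206 and 206 to 209, 212 and 207 (0.03, adjusted p = 0.767). The net change was -0.29 (SE 0.036, adjusted p = 5.91e-09). On the log2(TPM + 1) scale, where the median net change of all genes was 0.19, it was -0.01 (adjusted p = 0.816). The sgNS rise became -0.04 on that scale, where the median of all genes in sgNS moved by -0.157. The mitochondrial share was 26 to 26.4% in sgNS with DMSO and 29.4 to 29.8% with DOX at that time, against 31 to 31.5% and 31.4 to 31.5% in sgZBTB11 #2; its part in this result was not tested.

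**Figure D4:**
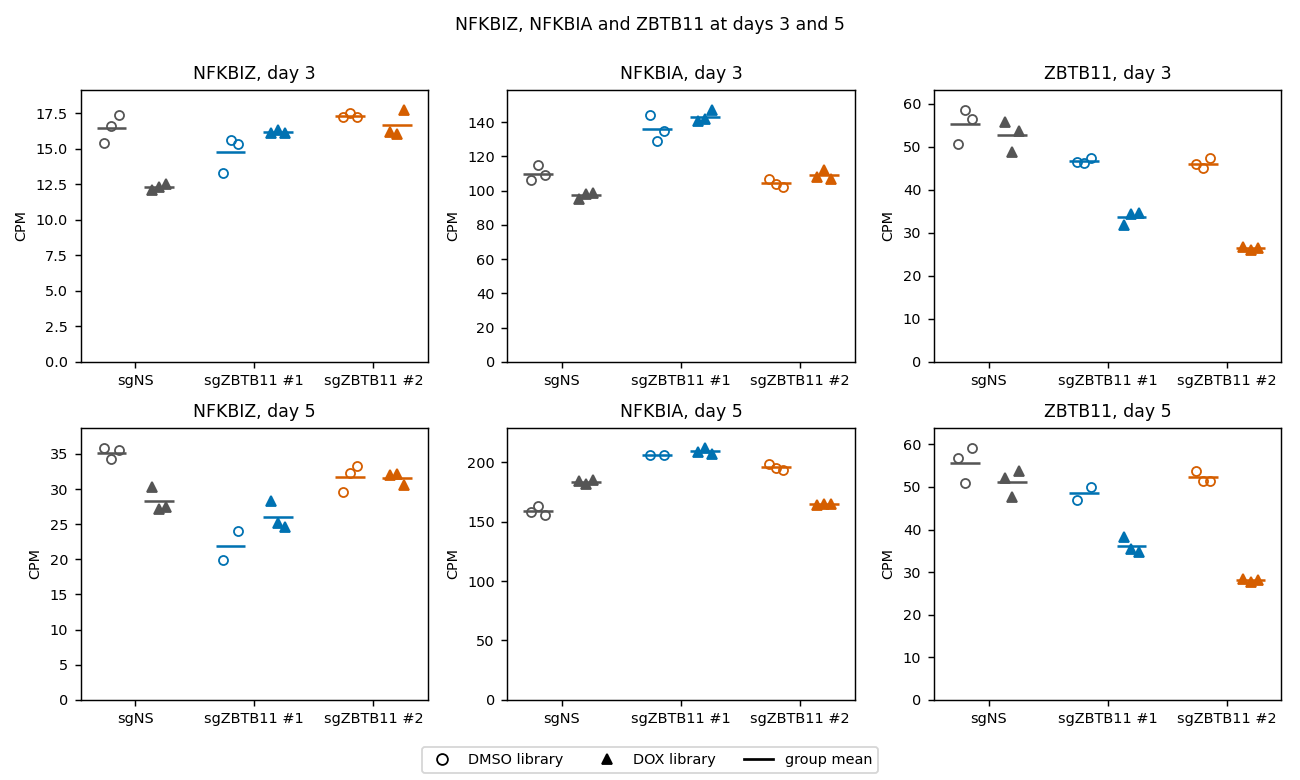
CPM (y axis, from 0) of NFKBIZ, NFKBIA and ZBTB11 at days 3 and 5 for each guide, 1 point per library with the group mean as a line. ZBTB11 falls with DOX in the sgZBTB11 #1 and #2 lines, NFKBIZ falls with DOX in sgNS, and NFKBIA at day 5 rises in sgNS and falls in sgZBTB11 #2.

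The other net calls were NFKB2 (0.28, SE 0.048, adjusted p = 2.03e-05) and RELB (0.25, SE 0.065, adjusted p = 0.00277) at 5 hr, and BIRC3 at day 5 (1.29, SE 0.461, adjusted p = 0.0411). The NFKB2 value stood on a rise with sgZBTB11 #2 (0.24), beside like falls in sgZBTB11 #1 (-0.30) and sgNS (-0.31), all called. RELB changed by -0.16 in sgNS (called), -0.005 in sgZBTB11 #1 (not called) and 0.17 in sgZBTB11 #2 (called). On the log2(TPM + 1) scale, where the median of all genes moved by -0.13, the 5 hr net values were 0.07 for NFKB2 and 0.03 for RELB. After removal of the length and GC trend the RELB net value was 0.01. None of these was called. BIRC3 at day 5 rested on 0.41 to 1.55 CPM in the DOX libraries. Its DOX change then was -0.91 in sgNS (adjusted p = 0.0913), 0.21 in sgZBTB11 #1 and 0.55 in sgZBTB11 #2, with no line called by itself. The net call was lost with no filter on low counts and after removal of the length and GC trend. It was also lost by DESeq2 (adjusted p = 0.189) or without any 1 of 9 of the 17 libraries. These were sgNS DMSO or DOX replicate 1 or 3, sgZBTB11 #1 DMSO replicate 1 or DOX replicate 1 or 2, and sgZBTB11 #2 DMSO replicate 3 or DOX replicate 1 (adjusted p up to 0.128). NFKB1, RELA, REL, TNFAIP3 and CXCL8 passed no net test at any time. For CXCL8 the net change was -0.05, 0.00, 0.11 and 0.09 at the 4 times, with SEs of 0.040 to 0.065.

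The guides themselves differed in 4 members at 5 hr (3 higher and 1 lower in sgZBTB11 #2; 35.1% of all genes), 0 at day 1 (0.0614%; 1 member, CXCL8, at an unadjusted p under 0.05), 0 at day 3 (0.018%; 2 members, RELB and CXCL8, unadjusted) and 1 at day 5 (2.58%), all by edgeR; DESeq2 likewise called 0 at days 1 and 3. NFKB2, NFKBIA and TNFAIP3 had the more positive DOX change in sgZBTB11 #2 at 5 hr and CXCL8 the more negative one. At day 5 it was NFKBIA, at 0.03 in sgZBTB11 #1 and -0.26 in sgZBTB11 #2, a difference of -0.29 (SE 0.042, adjusted p = 5.59e-06).

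The rest of the pathway was described by lists chosen by gene function. Higher and lower here are of the net change, the DOX change with the ZBTB11 guides minus that in sgNS, and not of a rise or fall with those guides. Of all genes tested, 30% were called at 5 hr and 19.2% at day 5, against 0.0737% and 0.493% at days 1 and 3. For the net change, 6 of 20 tested other inhibitors passed at 5 hr (2 higher, 4 lower), at the share of all genes. Of the same list, 0 passed at days 1 and 3 (by edgeR; 1 and 0 at an unadjusted p under 0.05), and 8 at day 5 (7 higher, 1 lower). At 5 hr the net change was -0.32 for ITCH, an E3 ligase (adjusted p = 0.000246), 0.44 for NLRC5 and 0.31 for PDLIM2. At day 5 the net change of OTUD7B was 0.50 (adjusted p = 0.000339), beside a called fall in sgNS (-0.41) and 0.14 and 0.05 with sgZBTB11 #1 and #2, neither called. That of ZC3H12A, an RNase that limits inflammatory transcripts, was 0.74 (adjusted p = 0.0314), with no line called by itself (-0.36 in sgNS, 0.30 and 0.47). COMMD1 had a net change of -0.35 (adjusted p = 0.000805) and a called fall with sgZBTB11 #2 (-0.21). Of 30 kinases and adaptors, 15 passed at 5 hr (10 higher, 5 lower), 0 at days 1 and 3 (by edgeR; 0 and 0 unadjusted), and 5 at day 5 (3 higher, 2 lower), near the share of all genes. MAP3K14, which encodes NIK, had a net change of 0.45 at 5 hr (SE 0.057, adjusted p = 3.09e-07), with called changes of -0.55 in sgNS, -0.34 in sgZBTB11 #1 and 0.14 in sgZBTB11 #2. The net change at 5 hr was 0.55 for NOD1 and -0.44 for TAB3. At day 5 it was 0.63 for IKBKG, 0.42 for TICAM1 and 0.36 for TAB3. Of these 3, only TAB3 had a called rise with a ZBTB11 guide (0.16 with sgZBTB11 #2), while IKBKG and TAB3 had called falls in sgNS (-0.44 and -0.19). TAX1BP1 and IRAK1, the most abundant of these lists where no gene passed, had net changes of 0.05 and 0.07 at day 1 and -0.05 and 0.03 at day 3.

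Of 32 ligand and receptor genes, 13 to 16 passed the filter. At 5 hr 4 passed the test (1 higher, 3 lower) and at day 5 2 did (both higher); at days 1 and 3 edgeR called 0 (2 and 0 unadjusted). At 5 hr the net change was -0.57 for TNFRSF21 (adjusted p = 6.2e-05) and -0.18 for IL1R1, the interleukin 1 receptor (adjusted p = 0.000494). At day 5 that of IL1R1 was 0.24 (adjusted p = 0.000578), beside a called fall in sgNS (-0.19) and no called change with either ZBTB11 guide (0.02 and 0.08). LTBR, the lymphotoxin receptor upstream of NIK, had net changes of 0.12 at 5 hr and 0.11 at day 5 (adjusted p = 0.0159 and 0.0358), and -0.05 and 0.00 at days 1 and 3. Of 44 other targets 28 to 30 were tested: 12 passed at 5 hr (3 higher, 9 lower), 0 at days 1 and 3 (by edgeR; 5 and 6 unadjusted), and 12 at day 5 (10 higher, 2 lower). At 5 hr the net change was -0.58 for CXCL5, -0.69 for TNFAIP8 and 0.55 for TRAF1. At day 5 it was 0.70 for KLF6 (adjusted p = 2.22e-16), which fell in sgNS (-0.46) and rose with both ZBTB11 guides (0.21 and 0.26, all called). It was 0.40 for SDC4, and -0.39 for the chemokine CXCL1 (adjusted p = 0.000296), which rose in sgNS (0.18) and fell with sgZBTB11 #2 (-0.37). CD44 had net changes of 0.01 and -0.08 at days 1 and 3.

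With DMSO, 26 of 31 tested targets passed from 5 hr to day 1 (7 higher, 19 lower, median log2 change -0.32; 67.2% of all genes), 27 from day 1 to day 3 (9 higher, 18 lower; 79.8%) and 21 from day 3 to day 5 (7 higher, 14 lower; 65.3%). The last count is near the share of all genes.

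Of the genes near ZBTB11 on chromosome 3, 9 of 12 were tested at 5 hr and 10 later. For the net change edgeR called 5, 0 (1 at an unadjusted p under 0.05), 2 and 5 of them at the 4 times. The shares of all genes called at these times were 30%, 0.0737%, 0.493% and 19.2%. ZBTB11 itself was among the genes called at 5 hr, day 3 and day 5 (-0.26, -0.56 and -0.50). The 5 hr value is a difference from the DOX change in sgNS and not a fall with both guides. ZBTB11 was then not lower with DOX in sgZBTB11 #1. The net change of ZBTB11 at day 1 was -0.32 (adjusted p = 0.0545). At 5 hr the other net changes called were SENP7 (-0.49), PCNP (-0.25), CEP97 (-0.46) and RPL24 (0.17), which stood beside called changes of the opposite sign in sgNS (0.52, 0.29, 0.61 and -0.23). At day 3 NFKBIZ was the other gene called, while RPL24 was at -0.15 (adjusted p = 0.127) and PCNP at 0.16 (0.212). At day 5 they were TRMT10C (-0.32), RPL24 (-0.39), CEP97 (0.41) and NFKBIZ (0.46). TRMT10C and RPL24 had called falls with sgZBTB11 #2 (-0.25 and -0.11), while CEP97 and NFKBIZ had no called change with either ZBTB11 guide. ZBTB11-AS1, NXPE3 and IMPG2 passed at no time at which they were tested; ZBTB11-AS1 overlaps the target and, as the strand setting is not given in the sources used here, its reads cannot be told apart from those of ZBTB11.

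The genes whose group means followed a member most closely were found among 11200 genes with a mean of at least 5 CPM, by Pearson's r of log2 group means over the 24 groups. Groups share lines, times and handling, so r is a description. CXCL8 was closest to its neighbour in the chemokine family, CXCL1 (r = 0.993), then TMEM158 (0.983) and ABCD3 (0.98). CXCL1 had log2 changes with DMSO of -1.70 to day 1 and -1.14 to day 3, while CXCL8 fell by 1.91 and then fell by 1.00. RELB was closest to PXDC1 (0.993), MTCL1 (0.992) and DNMBP (0.992). NFKBIA was closest to ANKS3 (0.984), NPIPB12 (0.982) and ENSG00000291124 (0.981), and NFKBIZ to PFKM (0.913), the stress factor DDIT3 (0.903) and the clock gene PER2 (0.899), which were less like it than the others were like their members.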

How the data were processed

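PolyA RNA was sequenced in pairs of reads, as 70 libraries. The files deposited by the authors hold expected counts and TPM by gene. Per the submitters' processing notes RSEM and GRCh38.p14 were used; which aligner, annotation version and strand setting is not given in the sources used here. Expected counts were rounded (5.13% of values were not whole), and 0 columns belonged to other samples. TPM, as deposited by the authors, were used for levels between genes and in an alternative test. Groups came from the labels.

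The main test was edgeR 4.0.16 (R 4.3.3), quasi-likelihood F test with TMM scaling and filterByExpr, 1 fit per time point plus 1 of the 34 DMSO libraries, with Benjamini-Hochberg adjustment over all genes tested and a threshold of 0.05. Length and GC content came from the longest GENCODE transcript, which covered 90.7% of tested genes. The settings varied in turn were scaling (RLE), the tool (DESeq2 1.42.0), the filter (none), a replicate block, limma 3.58.1 on log2(TPM + 1) and log2(TPM + 0.1), 1 fit of all libraries and leaving out each library. The fits of day 3 and of the DMSO libraries were tested on simulated data.

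The members and lists were chosen with earlier results of these data known. Named beyond the members were ZBTB11 and the list near it; from each of 4 pathway lists at each time, up to 3 genes with the largest net change past the threshold, or else the gene with the highest mean CPM; and the 3 genes closest to each of NFKBIA, NFKBIZ, CXCL8 and RELB.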

Additional observations from a re-analysis of the deposited data

Results flagged for a closer look

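The 2 ZBTB11 guides gave different DOX changes in 5 tests of members, each flagged because the difference itself passed the test (edgeR, adjusted over all genes). At 5 hr, sgZBTB11 #2 minus sgZBTB11 #1 was 0.538 for NFKB2 (adjusted p = 2.16e-10; changes of -0.30 with sgZBTB11 #1 and 0.24 with sgZBTB11 #2), 0.349 for NFKBIA (adjusted p = 1.2e-06; -0.49 and -0.14) and 0.617 for TNFAIP3 (adjusted p = 0.0186; -0.39 and 0.23). For CXCL8 at 5 hr it was -0.339 (adjusted p = 1.72e-07; 0.07 and -0.27). At day 5 it was -0.289 for NFKBIA (adjusted p = 5.59e-06; 0.03 and -0.26).

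At 5 hr the guides differed in 35.1% of all genes tested, so these 4 members are among many. The CXCL8 difference was -0.01 (adjusted p = 0.945) after removal of the length and GC trend. The TNFAIP3 difference was not called by DESeq2 (adjusted p = 0.102), nor without sgZBTB11 #1 DMSO replicate 3 (0.0527), sgZBTB11 #1 DOX replicate 3 (0.0625), sgZBTB11 #2 DMSO replicate 3 (0.0927) or sgZBTB11 #2 DOX replicate 2 (0.0726). The mitochondrial share at 5 hr was 14 to 14.1% with DMSO and 12.2 to 12.4% with DOX in sgZBTB11 #1, and 12.5 to 12.7% and 13.1 to 13.4% in sgZBTB11 #2; its part in these differences was not tested.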

How the results depend on the processing

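Of 74 member tests past the threshold, the call was kept in 73 with RLE scaling, 69 with no filter, 70 in 1 fit of all 70 libraries, 62 after removal of the length and GC trend, 59 with DESeq2 and 47 of 70 in each limma fit; 17 lost it without at least 1 library. A library left alone in its group was assumed to vary like the other groups. The sgZBTB11 #1 DOX count of 8 became 4 with DESeq2, with log2(TPM + 1) and with log2(TPM + 0.1), and the sgZBTB11 #2 count of 9 became 5 in both limma fits; the cause was not tested. Leaving out 1 library gave 11 to 12 calls in sgNS, 6 to 9 in sgZBTB11 #1, 7 to 9 in sgZBTB11 #2, 6 to 7 net, 4 to 6 between guides, 5 to 7 between lines and 27 to 28 over time. The direction reversed in 4 results: RELB with DOX in sgNS at 5 hr (-0.163) was 0.028, 0.029 and 0.069 with log2(TPM + 1), log2(TPM + 0.1) and removal of the length and GC trend; NFKBIA with DOX in sgNS at day 5 (0.178) was -0.037 in both limma fits; RELA from 5 hr to day 1 (-0.104) was 0.052 and 0.054; and RELA from day 3 to day 5 (0.167) was -0.08 and -0.084. On the log2(TPM + 1) scale the median change of all genes with DOX in sgNS was 0.166 at 5 hr and -0.157 at day 5. Depth limits REL, TNFAIP3 and BIRC3, with under 110 counts a library except BIRC3 at 5 hr. It also limits RELB late, with 50 to 92 counts a library at day 3 and 36 to 77 at day 5.

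Of 10 comparisons with 3 pairs, 0 had every same-number correlation over 0.1 (r from -0.121 to 0.235). Pairs of unlike number were not compared, so this cannot show that the libraries were unpaired. With the replicate block, 72 of 74 calls were kept by title number and 71 by library name number; CXCL8 in sgNS at day 5 (adjusted p = 0.0543) and NFKB2 in sgZBTB11 #1 at day 5 (0.052) were lost in both.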
